A study of Mus musculus and Acomys cahirinus with 25 samples.

Results

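Expression of 10 genes of the JAK, STAT and SOCS pathway was followed through wound skin of the laboratory mouse and the spiny mouse: the receptor subunits Osmr and Lifr, the kinases Jak1 and Jak2, the transcription factors Stat3, Stat5a, Stat5b and Stat6, and the inhibitors Socs1 and Socs3. They were taken by symbol, and all 10 were found once among the 24500 gene rows of every one of the 25 RNA-seq libraries. The study asked which genes accompany the new hair follicles that form in the center of large wounds of the laboratory mouse and across the whole wound of the spiny mouse, a rodent that regrows skin with hair. The 13 laboratory mouse libraries came from wounds of the back, full-thickness squares of 1 cm a side, collected at post-wound day 14 (PWD14). The study's main strain was C57BL/6J, wounded at 4 weeks of age. Wild-type epidermis was divided into wound center (n = 2) and wound margin (n = 2), and wild-type dermis into wound center (n = 5) and wound margin (n = 2). A further 2 libraries of wound center dermis came from K14-Cre-Twist1 mice, bred from a Twist1 conditional line and a keratin 14 Cre line with wild-type Twist1+/+ controls, whose strain background is not given in the sources used here. In these mice a loxP-flanked Twist1 is deleted by a Cre driven from the keratin 14 promoter, that is in epidermal keratinocytes, so that the dermis sequenced here is not the layer in which the deletion is driven. The study set replicates 1 and 2 of the wild-type center dermis beside the margin and replicates 3 to 5 beside the K14-Cre-Twist1 libraries, and this division was kept. The 12 spiny mouse libraries (Acomys cahirinus, wild type, 2 months old) came from back skin of PWD0, the day of wounding, for which the labels name no region, and from whole wounds, made 1.5 cm a side, of the later days. They were epidermis at PWD0 (n = 1), PWD14 (n = 2), PWD21 (n = 2) and PWD28 (n = 1), and dermis at PWD0 (n = 2), PWD14 (n = 1), PWD21 (n = 2) and PWD28 (n = 1). The days are those of the labels, and the study's own sample list differs from them for the spiny mouse wounds.

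The pathway carries signals from cytokine receptors to the nucleus. A cytokine brings receptor subunits together, the Janus kinases (JAKs) bound to their tails phosphorylate each other and the receptor, and STAT proteins that dock there are phosphorylated, pair up and bind DNA. The STATs switch on the SOCS genes, whose proteins block the kinases and close a feedback loop, so that Socs3 mRNA is widely read as a trace of recent STAT3 activity, while Stat3 mRNA itself says little about how much of the protein is phosphorylated. In skin, oncostatin M, LIF and other cytokines of the IL-6 family act through gp130 (Il6st) together with Osmr or Lifr, and STAT3 in keratinocytes is known for its part in wound closure and the hair cycle. None of the libraries measured phosphorylation.

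Activated STAT dimers bind the palindrome TTCNNNGAA, where N is any base, and the Socs3 gene carries this motif close to its start. It was searched in the 250 bases upstream of the transcript starts for which a RefSeq window (GRCm38) was at hand, and the start of the coding Socs3 transcript had no window of its own. Because the motif reads the same on both strands, 1 search covers both. All 10 genes had at least 1 such window, 13 windows in all, and only the window of Socs3 held the motif. Across the genome 2197 of 27025 genes with a window held it, or 8.13%, so 1 gene in 10 is near the background share. Of the other genes of the pathway followed here 4 of 42 held it (9.52%), and of the STAT3 target list 1 of 17 (5.88%). The stretch of Socs3 is printed because Socs3 was the only one of the 10 genes called between wound center and margin, in epidermis. It runs 5′ to 3′ on the minus strand at chr11:117969452-117969616 (RefSeq, GRCm38.p6), in an intron of a longer annotated transcript, and capitals mark the motif, which ends 326 bases before the start of the coding transcript.
Socs3 upstream: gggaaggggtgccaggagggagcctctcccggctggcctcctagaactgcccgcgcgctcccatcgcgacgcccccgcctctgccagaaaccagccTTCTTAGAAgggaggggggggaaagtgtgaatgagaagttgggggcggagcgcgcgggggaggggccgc
The match describes these letters alone, and no binding was measured. The absence of the motif from the other windows says only that these letters are not in those 250 bases.

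In the laboratory mouse genome (GRCm38, GENCODE annotation) Stat5b, Stat5a and Stat3 lie side by side on chromosome 11, with 346 bases between Stat5b and Stat5a and 1636 bases between Stat5a and Stat3. Stat3 spans 11:100886806-100939594. Stat5a and Stat5b are close copies of each other, and the counting could have split reads between them, so their separate levels are uncertain. Osmr (15:6813568-6874968) and Lifr (15:7090610-7197489) are neighbours on chromosome 15, 216 kb apart, while Socs3 (11:117966079-117970336) and Socs1 (16:10783808-10785536) are short genes. Exon lengths ran from 2.89 kb for Socs3 to 12.1 kb for Osmr.

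Depth and makeup of the libraries bear on every value. Reads on genes numbered 19413261 to 86532134 per laboratory mouse library and 5669760 to 34751956 per spiny mouse library, and the spiny mouse reads were aligned to the mouse genome. Reads set aside for low alignment quality made up 38.0% to 60.5% in the spiny mouse and 23.3% to 34.4% in the laboratory mouse. Levels are given as CPM, a gene's share of the reads on all genes in counts per 1000000, and 3 counts, taken as the smallest detectable amount, stood for 0.0347 to 0.529 CPM. Fold changes and tests came from edgeR, which rescales the libraries (TMM), and a gene was called at a false discovery rate (FDR, Benjamini-Hochberg over all genes tested) under 0.05. Where groups are said not to overlap, the share of all genes without overlap was not counted. The study describes its replicates as biologically independent, while the labels name no animals, and the tests measure the spread between these libraries. The layers fitted their labels, since summed keratinocyte markers reached 42627 to 216833 CPM in epidermis and summed fibroblast markers 70199 to 183583 CPM in dermis. The second K14-Cre-Twist1 library stood apart, with 36078 CPM of keratinocyte markers against 1055 CPM in the first and 40.2 to 90.8 CPM in its 3 wild-type controls. The margin epidermis pair also differed more than other pairs (chi-square per degree of freedom 375, with 346 for the K14-Cre-Twist1 pair and 28.3 to 103 for the rest). In tissue made of several cell types, fewer cells of a type and less RNA per cell cannot be told apart.

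Per kilobase of exon, the kinase Jak1 and the factor Stat6, which answers IL-4 and IL-13, led the 10 genes in each laboratory mouse group but 1. In center epidermis Stat6 stood at 39.3 ± 0.69 CPM per kb (SD, n = 2) and Jak1 at 39.1 ± 0.087, followed by Socs3 at 23.1 ± 8.74 and Stat3 at 21.8 ± 1.71. Stat6 and Jak1 did not differ beyond their spread, and neither did Socs3 and Stat3. At the margin Socs3 was at 2.38 CPM per kb, in ninth place, while Stat3 was in the third place at 20.1. In center dermis (replicates 1 and 2) Jak1 led at 28.6 CPM per kb, ahead of Stat6 and Jak2, both at 24.9, and Stat3 at 12.1. The exception was center dermis replicates 3 to 5, where Jak1 led at 39.8 and Socs3 came second at 33.6 ± 32.1 (SD, n = 3), above Stat6 at 29.5 ± 3.94, a difference within the spread of Socs3. Socs1, which blocks JAKs downstream of interferons, was the lowest in center epidermis and in that dermis pair, at 0.717 and 2.29 CPM per kb.

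Wound center and wound margin of laboratory mouse epidermis differed in Socs3. Socs3 stood at 48.9 and 84.7 CPM in the center libraries and at 8.98 and 4.80 CPM at the margin, so the groups did not overlap. The fitted difference was 3.23 ± 0.47 (log2, SE), or 9.40-fold, with FDR = 0.0482 in edgeR. Stat3, the factor that drives Socs3, stood at 196 and 219 CPM in the center and at 223 and 160 CPM at the margin. The Stat3 groups overlapped, and the fitted log2 difference was 0.00 ± 0.27 (FDR = 0.998). No direction held for Stat3 in both center libraries. Relative to Stat3 in the same library, there were 25 and 38.7 Socs3 counts per 100 Stat3 counts in the center and 4.03 and 2.99 at the margin.

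Socs1 stood at 2.11 and 2.06 CPM in the center and at 0 and 0.277 CPM at the margin, which corresponds to 0 and 24 counts. Its log2 difference of 3.34 ± 0.86 had FDR = 0.108 and was not called. Lifr, the LIF receptor subunit, stood at 17.2 and 18.8 CPM in the center against 36.3 and 48.1 CPM at the margin. The Lifr groups did not overlap, and the log2 difference of -1.33 ± 0.24 had FDR = 0.0710. Stat5a also stood lower in both center libraries, at 19.1 and 13.9 CPM against 26 and 28.5 CPM, with a log2 difference of -0.83 ± 0.26 and FDR = 0.154. Osmr, the oncostatin M receptor subunit, stood at 25.1 and 43.4 CPM in the center and at 68.8 and 27.3 CPM at the margin, so these groups overlapped. In all, 1 of the 10 genes was called, higher in the center, where 1.24% of the 14165 genes tested were called and 0.882% were called higher. At an unadjusted p under 0.05, 4 of the 10 passed, but many other genes did as well. The last of the 4, Stat5a, was in place 1924 by p among the 14165 genes.

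The Socs3 call rested on a small margin. FDR was 0.0947 with edgeR's older quasi-likelihood method, 0.0568 with a minimum of 10 counts in every library, and 0.0809 when all laboratory mouse libraries shared 1 fit. Which of the 10 genes were called also changed when a margin library was left out. Summed markers of other cells were also higher in the center epidermis. The 8 neutrophil markers summed to 254 and 404 CPM in the center and 111 and 41.3 CPM at the margin, with 3 to 5 of them at 0 in each library. The median neutrophil marker was at 0.508 and 0.262 CPM against 0 and 0.104 CPM, so these sums rest on few genes. The 15 fibroblast markers summed to 6255 and 5132 CPM against 2460 and 830 CPM, with 2 at 0 in the first margin library and none in the other 3. The 9 endothelial markers summed to 39.6 and 28.3 CPM against 6.69 and 1.72 CPM, with none at 0 in the center and 3 and 4 at 0 at the margin. The part of these cells in the Socs3 difference was not tested.

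**Figure D1:**
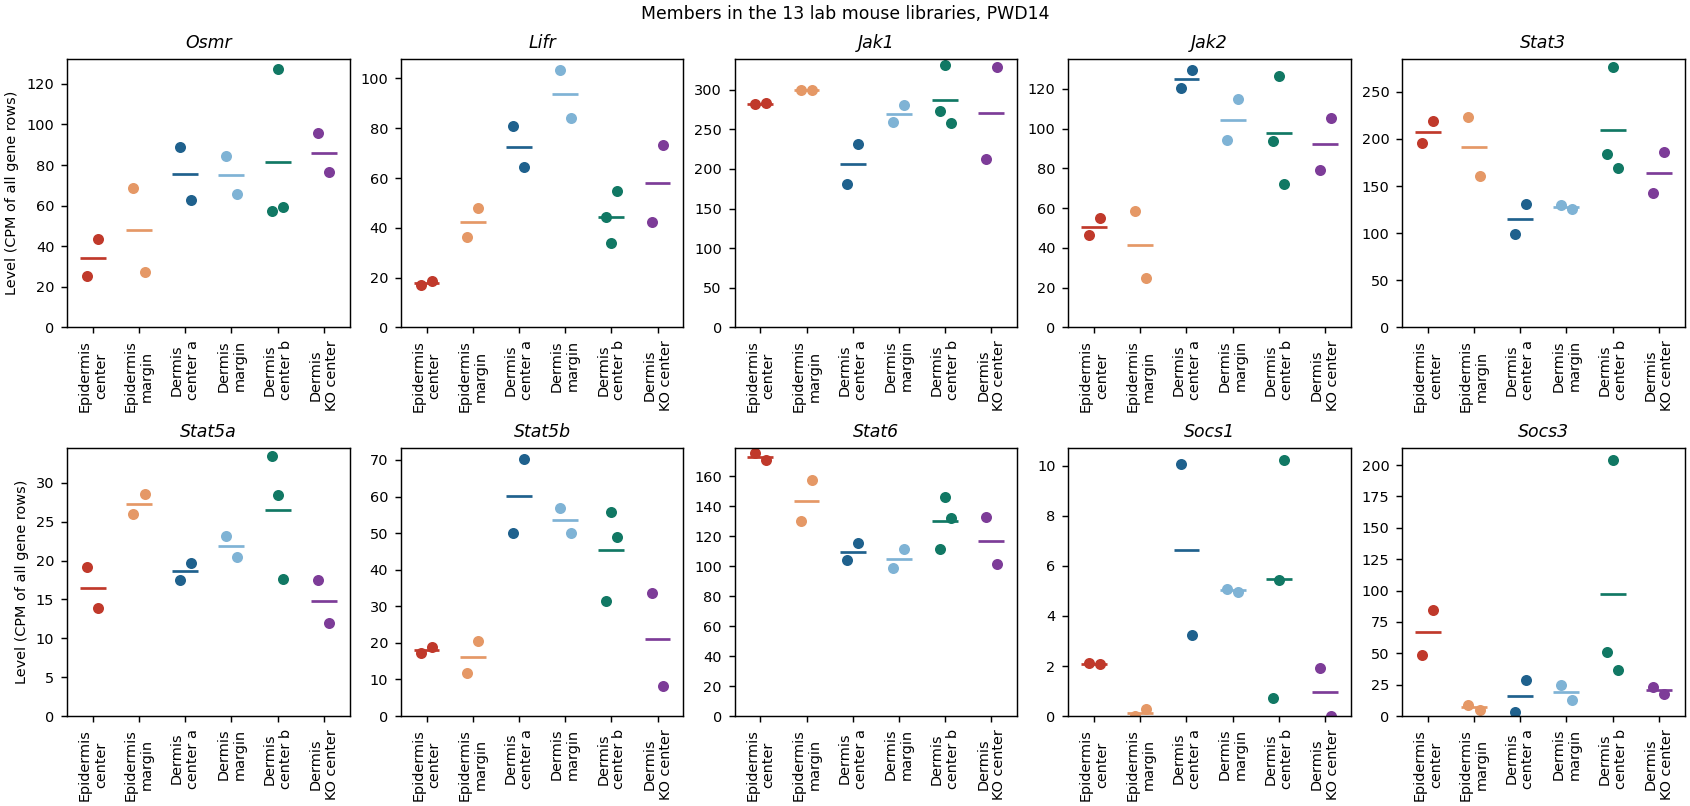
Levels of the 10 genes in the laboratory mouse libraries at PWD14, in CPM on linear axes that start at 0, with 1 panel per gene, 1 point per library and a line at the mean of each of the 6 groups. Socs3 stood at 48.9 and 84.7 CPM in center epidermis against 8.98 and 4.80 CPM at the margin, while the Stat3 points of these groups overlapped, and 1 wild-type center dermis library reached 203.9 CPM of Socs3.

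Ligands, receptors and targets around these genes gave few calls in the same comparison. Of 61 other pathway genes 49 were tested and 1 was called, Clcf1, a cytokine of the IL-6 family that signals through gp130 and the LIF receptor. Clcf1 stood at 12.7 and 22.9 CPM in the center and at 0.935 and 1.01 CPM at the margin (log2 difference 4.10 ± 0.52, FDR = 0.0390). The median of the 49 was -0.08 log2 units beside -0.02 for all genes tested. Of the 20 genes listed as STAT3 targets 17 were tested, with a median of 0.44, and 1 was called, Junb, a growth-induced transcription factor. Junb stood at 232 and 238 CPM in the center and at 54.5 and 48.4 CPM at the margin (log2 difference 2.09 ± 0.22, FDR = 0.0367). The lists of 4 STAT5 and 8 STAT6 targets had no call in this comparison.

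In the dermis of the same wounds none of the 10 genes was called between center and margin, and none had an unadjusted p under 0.05. Socs3 stood at 3.53 and 28.8 CPM in center replicates 1 and 2 and at 25 and 13.2 CPM at the margin. The center pair enclosed both margin values, and the log2 difference was -0.22 ± 0.70 (FDR = 0.930). Stat3 stood at 99.6 and 131 CPM in the center and at 130 and 125 CPM at the margin, with a log2 difference of -0.07 ± 0.21. The 10 fitted differences ran from -0.30 for Jak1 to 0.54 for Socs1. In this comparison 0.850% of the 14698 genes tested were called and 0.116% were called higher in the center. None of the 50 other pathway genes tested was called, with a median of -0.09 beside -0.03 for all genes tested. None of the 20 STAT3, 4 STAT5 and 8 STAT6 targets was called. With all 5 wild-type center libraries the Socs3 difference was 1.91 and was not called.

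The receptor subunits and Jak2 were not called either. Osmr stood at 88.7 and 62.6 CPM in center replicates 1 and 2 and at 84.5 and 65.7 CPM at the margin, so the groups overlapped. Lifr stood at 80.9 and 64.4 CPM in the center and at 103 and 83.9 CPM at the margin, where both values were higher, and its log2 difference of -0.27 ± 0.25 was not called (FDR = 0.669). Jak2 stood at 120 and 130 CPM in the center and at 94.1 and 115 CPM at the margin (0.35 ± 0.21, FDR = 0.465), without overlap.

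Whether the center-margin difference itself differed between the layers was tested as an interaction term, which used the same 8 libraries. For Socs3 the epidermal difference exceeded the dermal one by 3.57 ± 0.99 log2 units, with FDR = 0.0848, so the difference between layers was not called. None of the 10 genes was called, where 3.48% of the 15531 genes tested were called and 3.34% were called with the epidermal difference higher. An unadjusted p under 0.05 was reached by 3 of the 10, the last of them Socs1, in place 2400 by p among all genes tested. Of the targets 4 were called. Junb exceeded by 2.34 ± 0.32 (FDR = 0.00372), and in dermis it stood at 29.5 and 33.0 CPM in the center and 35.7 and 35.8 CPM at the margin. Timp1, an inhibitor of metalloproteinases, exceeded by 2.60 ± 0.57 (FDR = 0.0287). The STAT6 target Arg1, which encodes arginase 1, and the STAT5 target Igf1 exceeded by 6.42 ± 1.15 (FDR = 0.00914) and 2.83 ± 0.56 (FDR = 0.0198). Mean Arg1 was 461 CPM in center and 138 CPM in margin epidermis, but 0.206 CPM in center dermis. Mean Igf1 was 6.27 and 1.39 CPM in epidermis, beside 1223 CPM in margin dermis. Neither Arg1 nor Igf1 was called between center and margin in either layer alone. Each term takes in both layers, so its size is not that of the epidermal difference. Keratinocyte markers summed to 676 and 471 CPM in center dermis and to 2419 and 4865 CPM in margin dermis. The part of keratinocytes or fibroblasts in these terms was not tested. No other pathway gene of the 54 tested was called.

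Comparing K14-Cre-Twist1 with wild-type wound center dermis asked how epidermal deletion of Twist1 changes the wound dermis. Twist1 itself stood at 73.4 and 44.0 CPM in the K14-Cre-Twist1 dermis and at 57.7, 36.3 and 105 CPM in the 3 wild-type libraries, and the groups overlapped. As the deletion is driven in keratinocytes, the dermal level does not check it. Socs3 stood at 23.3 and 17.7 CPM in the K14-Cre-Twist1 libraries and at 51.1, 204 and 36.5 CPM in the wild type. The groups did not overlap, and the log2 difference was -2.21 ± 0.74 with FDR = 0.340. Socs3 counts per 100 Stat3 counts were 16.4 and 9.55 in K14-Cre-Twist1 and 27.9, 73.9 and 21.6 in the wild type. Of the 10 genes none was called and 1 had an unadjusted p under 0.05, Socs3, in place 715 by p among all genes tested. The background was 0.0565%, or 8 of 14163 genes tested, and no other pathway gene or target was called.

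The receptor subunits and kinases overlapped between the genotypes. Lifr stood at 42.3 and 73.4 CPM in K14-Cre-Twist1 and at 44.3, 34.0 and 54.7 CPM in the wild type, and Osmr at 95.6 and 76.4 CPM against 57.3, 127 and 59.6 CPM. Stat3 stood at 142 and 186 CPM against 184, 276 and 169 CPM (log2 difference -0.36 ± 0.27, FDR = 0.589). Stat5a stood at 17.6 and 12 CPM against 33.4, 28.4 and 17.7 CPM, without overlap. Its log2 difference was -0.84 ± 0.48 with FDR = 0.510.

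A single wild-type library held much of this spread. Replicate 4 had the highest Socs3 level of all 25 libraries, 203.9 CPM, and the 8 neutrophil markers summed to 872 CPM there, with 1 at 0, against 27.5 to 186 CPM in the other 4 wild-type center dermis libraries, with 3 or 4 at 0. Osmr was also highest in that library, at 127 CPM against 57.3 to 88.7 CPM in the other 4. Stat5b stood at 33.7 and 8.34 CPM in the K14-Cre-Twist1 libraries against 31.4, 55.7 and 48.9 CPM in the wild type. The low value belongs to the library rich in keratinocyte markers. With only that library set against the wild type the Stat5b log2 difference was -2.48, from a fit that left 1 library in its group. The part of neutrophils or keratinocytes in these values was not tested.

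In the laboratory mouse wound the layers differed in 7 of the 10 genes in the center, where 56.1% of all genes tested were called. Relative to the typical gene, center epidermis held more mRNA of Stat3, Stat6, Jak1 and Socs3, of which the calls of Jak1 and Socs3 were lost on library size alone, while center dermis held more Stat5b, Jak2 and Lifr. In the wound center Stat3 stood at 196 and 219 CPM in epidermis against 99.6 and 131 CPM in dermis (log2 difference 1.64 ± 0.17, FDR = 0.00121). Stat6 stood at 175 and 171 CPM against 104 and 115 CPM (1.44 ± 0.13, FDR = 0.000835), and Jak1, which pairs with the gp130 and interferon receptors, at 282 and 283 CPM against 181 and 232 CPM (1.24 ± 0.16, FDR = 0.00214). None of these 3 pairs of groups overlapped, and among the 10 genes only the groups of Stat5a did. Socs1 and Osmr, without overlap, were not called. As the share of all genes without overlap was not counted, the lack of overlap adds nothing to the calls. Socs3 was higher in epidermis by 2.87 ± 0.92 (FDR = 0.0462), with dermis at 3.53 and 28.8 CPM.

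In the same libraries Lifr stood at 17.2 and 18.8 CPM in epidermis and at 80.9 and 64.4 CPM in dermis (log2 difference -1.24 ± 0.22, FDR = 0.00693). Stat5b, which transmits growth hormone signals, stood at 17.2 and 19.0 CPM against 50.2 and 70.3 CPM (-0.94 ± 0.22, FDR = 0.0182). Jak2, the kinase of the growth hormone and erythropoietin receptors, stood at 46.3 and 55.0 CPM against 120 and 130 CPM (-0.52 ± 0.16, FDR = 0.0420). In all, 4 of the 10 genes were higher in epidermis and 3 lower, 7 called where 56.1% of the 14329 genes tested were called, 29.3% higher and 26.8% lower.

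At the wound margin 5 of the 10 genes were called between the layers, where 47.7% of the 14964 genes tested were, 20.9% higher in epidermis and 26.8% lower. Stat3 stood at 223 and 160 CPM in epidermis against 130 and 125 CPM in dermis (log2 difference 1.43 ± 0.33, FDR = 0.00542). Stat6, Jak1 and Stat5a were higher by 1.28 ± 0.30, 0.99 ± 0.31 and 1.15 ± 0.38. Socs1 was lower in epidermis by -3.91 ± 1.03 (FDR = 0.00940), at 0 and 0.277 CPM against 5.08 and 4.96 CPM. Socs3 was not called there, at 8.98 and 4.80 CPM in epidermis against 25 and 13.2 CPM in dermis (log2 difference -0.67 ± 0.58, FDR = 0.370). Both at the margin and in the center, which of the 10 were called changed when a single library was left out.

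These layer differences depended on the scaling. TMM sets the typical gene level between layers, and on library size alone the median of all genes tested moved from 0.05 to -0.73 in the center and from -0.16 to -0.98 at the margin. On library size alone 28.3% of calls in the center were higher in epidermis against 52.3% with TMM, and at the margin 20.5% against 43.8%. Stat3 and Stat6 stayed called as higher in center epidermis on that scaling, Jak1 and Socs3 did not, and Osmr was called as lower. At the margin none of the 4 higher calls was kept, and Stat5b, Jak2, Socs1 and Lifr were called as lower. The epidermis libraries were paired-end and the dermis libraries single-end, so layer and read type cannot be told apart. Genes with exons over 5 kb took 30.3% to 32.1% of reads in laboratory mouse epidermis and 50.9% to 55.2% in wild-type dermis. The part of gene length in the layer differences was not tested.

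Of the other pathway genes in the center 14 of 50 tested were higher in epidermis and 17 lower (median -0.48 beside 0.05 for all genes), where the background was 29.3% and 26.8%. At the margin 8 of 50 were higher and 15 lower (median -0.25 beside -0.16), where it was 20.9% and 26.8%. These shares are near the background. Il22ra1, the epithelial receptor subunit for IL-22 and IL-24, stood at 177 and 180 CPM in center epidermis and at 0 in both dermis libraries, at least 1150-fold higher against 3 counts per library. The cytokines Il24 and Il19 were at least 131-fold and 18.6-fold higher by the same floor, and the prolactin receptor Prlr at least 19.3-fold higher. At the margin the leptin receptor Lepr stood at 0 and 0.162 CPM in epidermis against 28.0 and 40.7 CPM in dermis, and Csf3r, the G-CSF receptor of neutrophils, at 0 and 0.208 CPM against 29.5 and 19.2 CPM. Osm, the ligand of Osmr, was at 0 in both margin epidermis libraries and at 3.49 and 4.06 CPM in margin dermis, at least 44.4-fold lower, and Epor, the erythropoietin receptor, at least 31.7-fold lower.

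Among all genes tested, 29.3% were called higher and 26.8% lower in center epidermis, and 20.9% and 26.8% at the margin, on the TMM scale. Of the 20 STAT3 targets 10 were higher and 6 lower in center epidermis, with a median of 1.73. At the margin 8 were higher and 5 lower, with a median of 1.0. STAT6 targets were mostly lower in epidermis, 6 of 8 in the center and 5 of 7 at the margin, with 1 higher in each. The exception in the center was Arg1, at 431 and 492 CPM in epidermis against 0 and 0.412 CPM in dermis. Retnla, a gene of alternatively activated macrophages, and the eotaxin gene Ccl11 were at 0 in center epidermis and at least 412-fold and 213-fold lower, while the chemokine Ccl17 stood at 0.0147 and 0 CPM against 2.45 and 5.87 CPM. At the margin Chil3, another macrophage gene, and Batf, from the STAT3 list, were at 0 in epidermis, at least 57.8-fold and 59.2-fold lower, and Ccl11 stood at 0 and 0.0462 CPM against 38.2 and 48.5 CPM. Igf1, which STAT5 induces, stood at 0.397 and 2.39 CPM in margin epidermis and at 1212 and 1235 CPM in margin dermis. The 11 macrophage markers summed to 75.6 to 129 CPM in epidermis and 3204 to 6596 CPM in dermis.

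**Figure D2:**
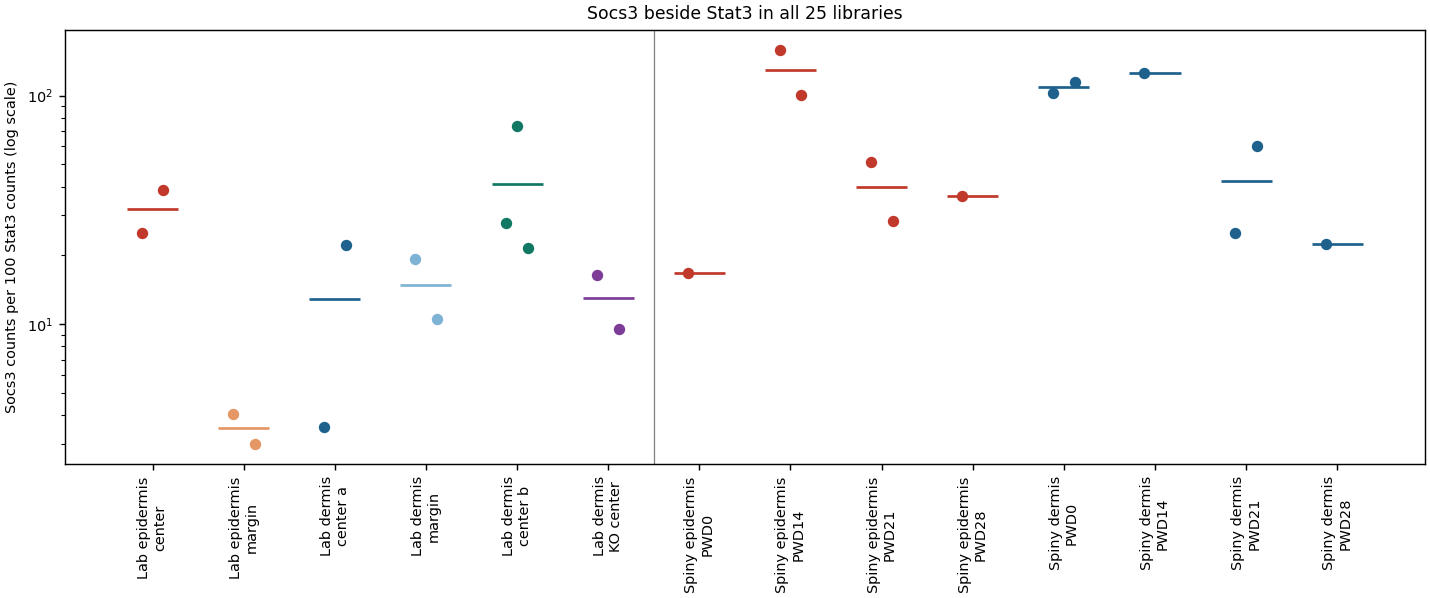
Socs3 counts per 100 Stat3 counts in each of the 25 libraries, on a log axis, by species, layer, region, genotype and post-wound day, with 1 point per library and a line at the mean of each group. The ratio was 25 and 38.7 in laboratory mouse center epidermis against 4.03 and 2.99 at the margin, and 158 and 100 in spiny mouse epidermis at PWD14 against 51.5 and 28.2 at PWD21.

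Spiny mouse epidermis was compared between PWD14 and PWD21, the days with 2 libraries each. At PWD14 Jak1, Stat3, Stat5a, Stat6 and Osmr were lower, whereas Socs1 was higher, and Socs3 was higher after TMM scaling though not on library size alone. Jak1 stood at 29.7 and 30.2 CPM at PWD14 and at 120 and 159 CPM at PWD21 (log2 difference -1.66 ± 0.19, FDR = 9.14e-05). The groups did not overlap, and the single libraries of PWD0 and PWD28 were higher still, at 372 and 196 CPM. Stat3 stood at 42.5 and 44.5 CPM at PWD14 against 105 and 114 CPM at PWD21 (-0.78 ± 0.17, FDR = 0.00304), with 164 CPM at PWD0 and 137 CPM at PWD28. Stat6 stood at 16 and 13.6 CPM against 55.0 and 64.6 CPM (-1.46 ± 0.21, FDR = 0.000282). Osmr stood at 2.56 and 1.40 CPM against 10.7 and 12.6 CPM (-2.03 ± 0.37, FDR = 0.00134), and Stat5a at 2.02 and 1.15 CPM against 5.76 and 4.91 CPM (-1.26 ± 0.43, FDR = 0.0319). All 5 of these genes were lower at PWD14 without overlap, but so were Jak2 and Lifr, which were not called. The share of all genes without overlap was not counted, so the lack of overlap adds nothing to the calls.

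Socs1 went the other way, at 17.7 and 17.3 CPM at PWD14 against 10.5 and 5.14 CPM at PWD21 (log2 difference 1.64 ± 0.31, FDR = 0.00168). The single libraries of PWD0 and PWD28 held 18.7 and 18.1 CPM of Socs1, so PWD21 was its lowest day in epidermis. Socs3 stood at 67.4 and 44.6 CPM at PWD14 and at 54.0 and 32.1 CPM at PWD21. The Socs3 levels overlapped in CPM, and the call of 0.92 ± 0.28 (FDR = 0.0190) arose on the TMM scale and was lost on library size alone (log2 difference 0.36, FDR = 0.272). Stat5b, Jak2 and Lifr were not called, with fitted differences of 0.39 ± 0.24, -0.07 ± 0.18 and -0.16 ± 0.27. Both Jak2 and Lifr stood lower at PWD14 in CPM, at 65.3 and 55.6 CPM against 98.1 and 88.3 CPM for Jak2, and on library size alone both were called as lower. In all, 7 of the 10 genes were called, where 46.6% of the 12889 genes tested were called. Of the 10, 2 were higher, where the background was 23.4%, and 5 lower, where it was 23.2%. On library size alone the median of all genes tested was -0.59 in place of -0.04, and 18.9% of calls were higher at PWD14 in place of 50.2%. With all spiny mouse libraries in 1 fit 4 of the 10 were called, Jak1, Stat6, Osmr and Socs1.

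**Figure D3:**
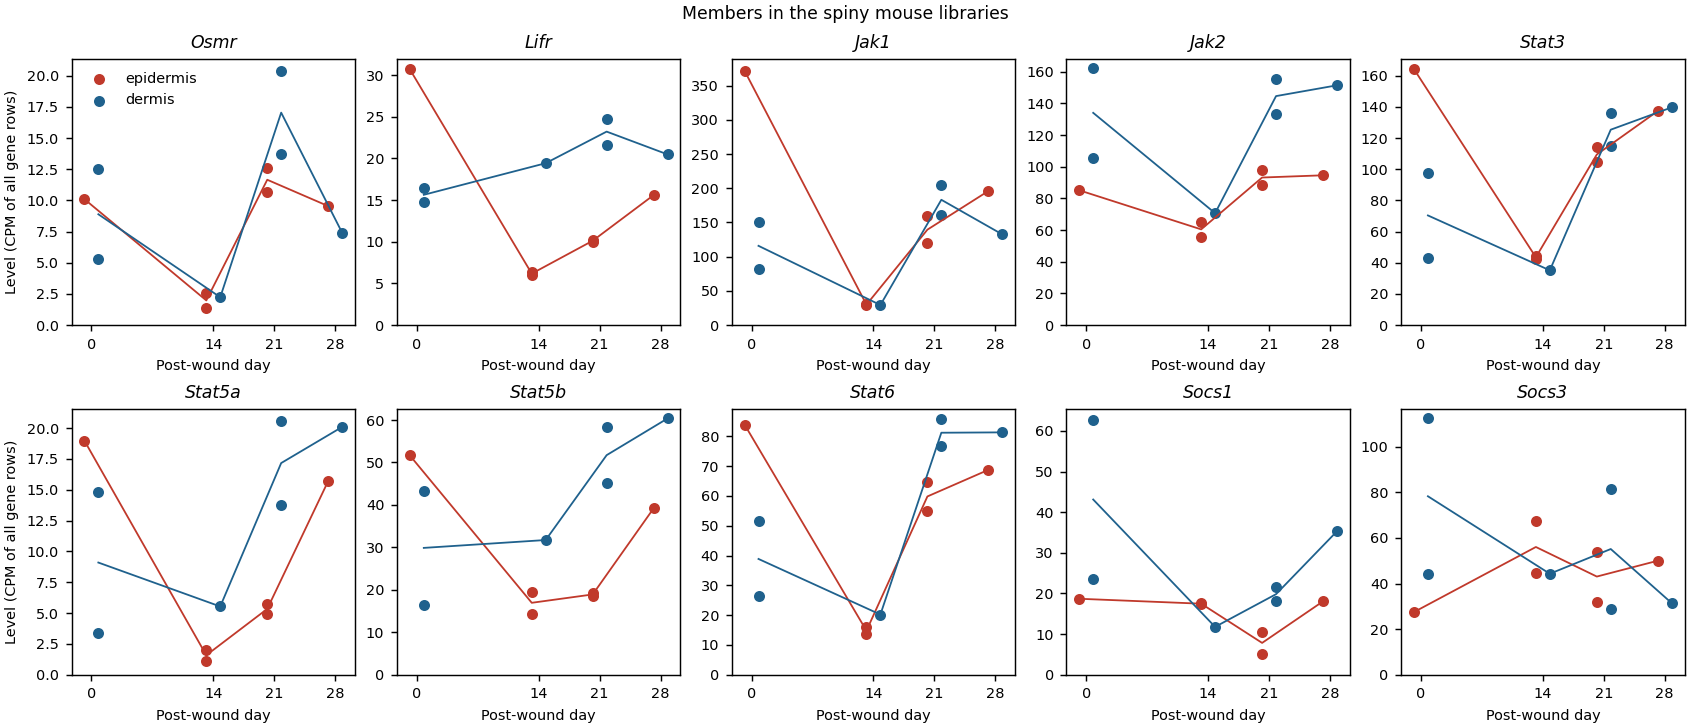
Levels of the 10 genes in the spiny mouse libraries by post-wound day (PWD0, 14, 21 and 28), in CPM on linear axes that start at 0, with red points for epidermis, blue points for dermis and lines joining the means. In epidermis Jak1, Stat3 and Stat6 had their lowest levels at PWD14 and their highest in the single PWD0 library. Jak1 stood at 29.7 and 30.2 CPM at PWD14 and at 372 CPM at PWD0. Epidermal Socs1 was at 17.7 and 17.3 CPM at PWD14, 10.5 and 5.14 CPM at PWD21, 18.7 CPM at PWD0 and 18.1 CPM at PWD28.

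Gene length moved with this comparison. Genes with exons under 1.5 kb took 15.3% and 15% of the reads of the PWD14 epidermis libraries and 4.12% to 11.8% in the other 10 spiny mouse libraries. The median log2 difference was 0.97 for short genes and -0.23 for genes over 5 kb. Of the 10 genes followed, Socs1 and Socs3, both called higher, have the shortest exons, at 2.91 and 2.89 kb, above the class under 1.5 kb. Jak1, Stat3, Stat5a and Osmr, called lower, have exons over 5 kb, at 7.23, 9.53, 7.13 and 12.1 kb. Stat6, also called lower, has 4.4 kb. Stat5b, Jak2 and Lifr, which were not called, are over 5 kb as well, at 5.54, 5.03 and 10.8 kb. The 8 neutrophil markers summed to 2503 and 1512 CPM at PWD14, with 6 and 2 at 0, against 408 and 181 CPM at PWD21, with 1 and 3 at 0, and the 7 adipocyte markers to 6304 and 5160 CPM, with 3 and 4 at 0, against 1352 and 1055 CPM, with 2 at 0 in each. The median adipocyte marker stood at 0.155 and 0 CPM at PWD14 against 0.236 and 0.228 CPM, and the median neutrophil marker at 0 and 0.223 CPM against 0.148 and 0.171 CPM, so the sums rest on few genes and do not describe the lists as a whole. The part of gene length or of these cells in the 7 calls was not tested.

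Other genes of the pathway were called in both directions between PWD14 and PWD21 in epidermis, 8 of 45 tested higher and 14 lower, with a median of -0.35 beside -0.04 for all genes. Together this is near the background of 46.6%. Stat2, the interferon STAT, stood at 0.698 and 0.0638 CPM at PWD14 against 4.67 and 7.02 CPM at PWD21 (log2 difference -3.45 ± 0.67), and Ifngr1, the interferon gamma receptor, at 3.41 and 9.51 CPM against 48.4 and 55.3 CPM (-2.42 ± 0.32). The cytokines Il19 and Il24, which act on keratinocytes through STAT3, were higher at PWD14, Il19 at 3.95 and 7.02 CPM against 0.798 and 1.14 CPM and Il24 at 10.7 and 28.5 CPM against 8.90 and 2.17 CPM. Among all genes tested 23.4% were called higher at PWD14 and 23.2% lower. STAT3 targets had 9 of 20 higher and 3 lower, with a median of 0.38. Among them were Timp1 at 9.84 and 4.34 CPM against 2.69 and 2.51 CPM and the acute-phase gene Saa3 at 4.19 and 1.53 CPM against 0.739 and 0 CPM. Arg1 (STAT6 list) was lower at 14.8 and 24.6 CPM against 85.1 and 121 CPM.

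In spiny mouse dermis PWD21 was compared with PWD0. None of the 10 genes was called, where 26.2% of the 14481 genes tested were, 1742 higher and 2050 lower. An unadjusted p under 0.05 was reached by 2 of the 10, Stat6 and Socs1, in places 3800 and 4251 by p among all genes tested. Stat6 stood at 76.8 and 85.7 CPM at PWD21 against 26.3 and 51.4 CPM at PWD0, without overlap, and its log2 difference of 0.99 ± 0.32 had FDR = 0.0502. Socs1 stood at 18.2 and 21.5 CPM against 23.6 and 62.6 CPM (-1.17 ± 0.40, FDR = 0.0620). Stat3 stood at 115 and 136 CPM against 42.9 and 97.9 CPM (0.77 ± 0.35, FDR = 0.131), and Socs3 at 28.9 and 81.4 CPM against 44.1 and 112 CPM (-0.55 ± 0.52, FDR = 0.461). The PWD0 pair differed widely, and which genes were called depended on which of its libraries was left out. The Socs1 difference was -1.61 without its first library and -0.48 without its second. Stat6 and Socs1 lay just short of the threshold in the fit of all 4 libraries, and both were called by DESeq2 and with a minimum of 10 counts in every library. Socs3 counts per 100 Stat3 counts were 103 and 115 at PWD0 and 126 in the PWD14 library, against 25.1 and 59.9 at PWD21 and 22.5 in the PWD28 library.

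The single dermis libraries of PWD14 and PWD28 allow no test, and their levels are given as they stood. At PWD14 Jak1 stood at 29.4 CPM, against 81.7 and 150 CPM at PWD0 and 161 and 205 CPM at PWD21. Stat3 stood at 35.1 CPM, Stat6 at 20.2 CPM and Osmr at 2.24 CPM in that library, each below every other dermis library of the spiny mouse, while Socs3 stood at 44.3 CPM, within the PWD0 range. At PWD28 Stat3 stood at 140 CPM, Stat6 at 81.3 CPM and Jak1 at 133 CPM, and Jak1 alone of these was below the PWD21 pair. Lifr ranged from 14.8 to 24.8 CPM over the 6 dermis libraries and Jak2 from 70.7 to 163 CPM, with its lowest level at PWD14.

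Around these genes, the other genes of the pathway were called in dermis at PWD21 at a share near that of all genes. Of the 10 ligands of the gp130 family 7 were tested and 3 were lower, none higher, with a median of -0.84, where 26.2% of all genes tested were called in either direction. Il6, the founding ligand of the family, stood at 6.89 and 6.22 CPM at PWD21 against 62.4 and 85.2 CPM at PWD0 (log2 difference -3.59 ± 0.31, FDR = 0.000331). Of the 7 receptors of the family 6 were tested, 2 were higher and none lower, with a median of 1.45, beside the same 26.2%. These lists are too short to set apart from that share. Il6st, which encodes gp130 and was chosen after its values were seen, stood at 90.7 and 120 CPM against 10.9 and 36.0 CPM (2.13 ± 0.46, FDR = 0.0123). Over the whole pathway list 6 of 51 tested were higher and 9 lower, with a median of 0.19 beside 0.03 for all genes, near the background of 26.2% called. The prolactin receptor Prlr stood at 0.137 and 0.115 CPM against 25 and 19.3 CPM, the IL-20 receptor subunit Il20rb at 1.23 and 1.41 CPM against 11.8 and 11.3 CPM, and the anti-inflammatory cytokine Il10 at 0.365 and 0.288 CPM against 1.94 and 2.06 CPM.

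STAT3 targets had 5 of 20 lower and 1 higher in this comparison, with a median of -0.78, where 26.2% of all genes tested were called. Lcn2, which encodes lipocalin 2, stood at 0.867 and 0.259 CPM against 7.76 and 7.05 CPM, and Serpina3n, a protease inhibitor, at 22.1 and 19.7 CPM against 66.7 and 65.0 CPM, whereas Saa3 was the target called higher, at 10.3 and 2.85 CPM against 1.06 and 0.441 CPM. Arg1 stood at 0.547 and 1.01 CPM against 62.1 and 36.3 CPM. The 14 keratinocyte markers summed to 12419 and 8781 CPM at PWD0 and to 817 and 1488 CPM at PWD21, and the 7 adipocyte markers to 1151 and 1126 CPM against 272 and 137 CPM, with none of either list at 0. Short genes had a median log2 difference of -1.04 and genes over 5 kb one of 0.36. The part of these cells and of gene length in the dermal values was not tested.

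Between the layers of the spiny mouse wound at PWD21, 4 of the 10 genes were called, all lower in epidermis. The background was 62.9% of the 14966 genes tested, 29.4% higher and 33.5% lower. Stat5b stood at 19.2 and 18.6 CPM in epidermis and at 45.1 and 58.4 CPM in dermis (log2 difference -1.33 ± 0.23, FDR = 0.00181). Stat5a stood at 5.76 and 4.91 CPM against 13.7 and 20.6 CPM (-1.56 ± 0.32, FDR = 0.00381), and Lifr at 10.3 and 9.99 CPM against 21.7 and 24.8 CPM (-1.08 ± 0.24, FDR = 0.00568). None of these groups overlapped, and among the 10 genes only the groups of Socs3 did. Stat3, Stat6, Jak1, Jak2 and Osmr, without overlap, were not called. As the share of all genes without overlap was not counted, the lack of overlap adds nothing to the calls. Socs1 was lower by -1.19 ± 0.38 (FDR = 0.0276). Stat3 differed by -0.08 ± 0.19 (FDR = 0.738) and Socs3, at 54.0 and 32.1 CPM against 28.9 and 81.4 CPM, by -0.24 ± 0.49. Which of the 10 were called changed when a single library was left out. The species were not compared in a test, since spiny mouse reads were aligned to the laboratory mouse genome and species, day and layer separation differed together.

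Receptors of the IL-20 family and their ligand Il24 were higher in epidermis of the spiny mouse. Il20rb stood at 102 and 129 CPM in epidermis against 1.23 and 1.41 CPM in dermis, Il22ra1 at 47.5 and 60.5 CPM against 0.456 and 1.53 CPM, Il20ra at 6.80 and 9.08 CPM against 0.0456 and 0.0576 CPM, and Il24 at 8.90 and 2.17 CPM against 0 and 0.144 CPM. Of the gp130 receptors 5 of 6 tested were lower in epidermis. Over the pathway list 12 of 53 were higher and 23 lower, where the background was 29.4% and 33.5%, with a median of -0.35 beside -0.06 for all genes. STAT3 targets had 13 of 20 higher and 4 lower, with a median of 1.12. Igf1 stood at 0.621 and 0.343 CPM in epidermis against 144 and 73.7 CPM in dermis, Mrc1, the macrophage mannose receptor, at 1.89 and 1.83 CPM against 151 and 97.8 CPM, the chemokine Ccl24 at 0 and 0.0571 CPM against 4.74 and 3.71 CPM, and Arg1 at 85.1 and 121 CPM against 0.547 and 1.01 CPM.

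The balance of Stat5a and Stat5b also moved across the series, within the uncertainty of their shared sequence. Stat5a made up 42.3% to 68.8% of the summed Stat5a and Stat5b counts in laboratory mouse epidermis and 21.9% to 51.6% in wild-type laboratory mouse dermis, ranges that overlap. In the spiny mouse it made up 7.41% to 28.6%, with the lowest shares, 9.35% and 7.41%, in epidermis at PWD14.

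**Figure D4:**
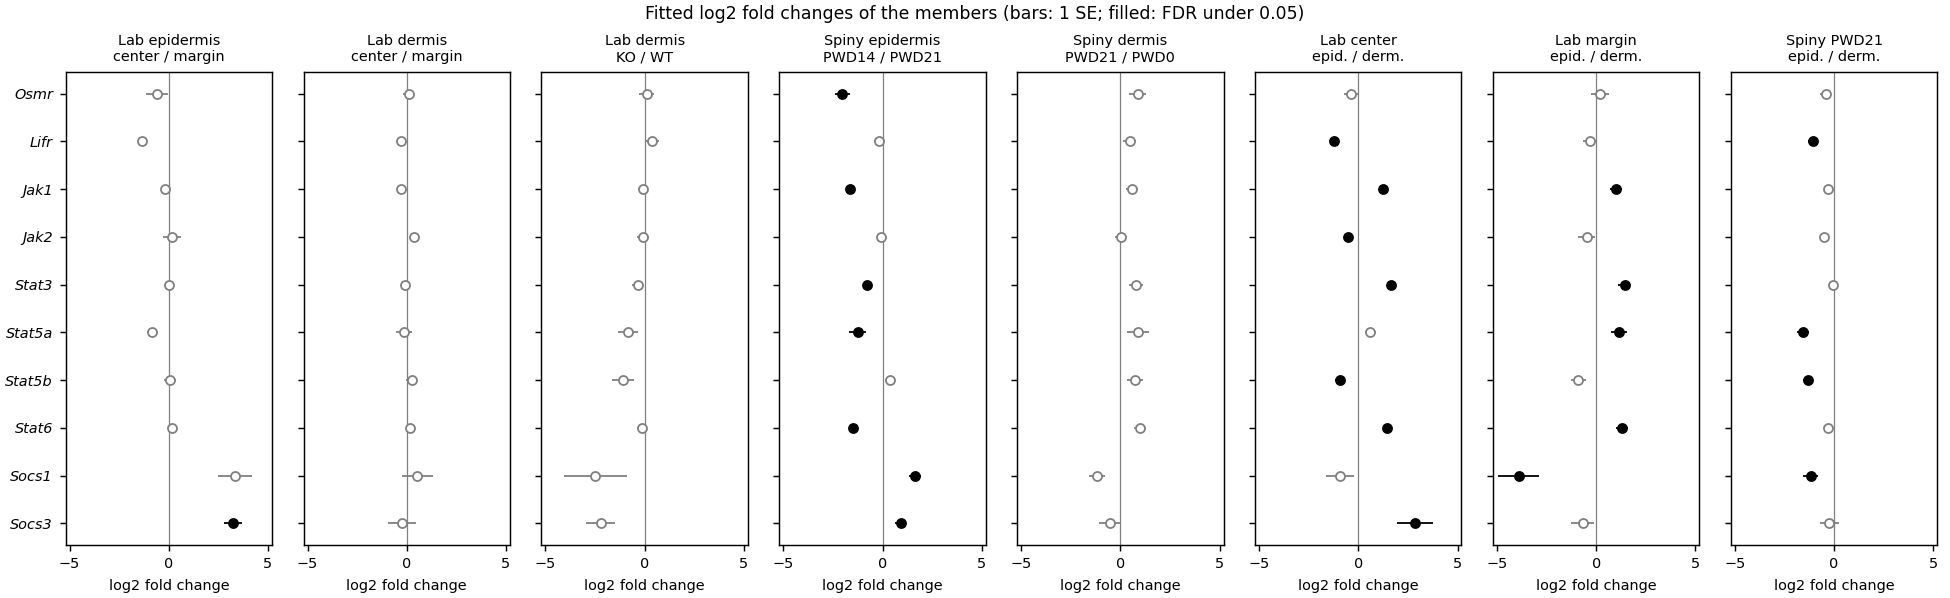
Fitted log2 differences of the 10 genes in 8 comparisons (edgeR, TMM), with bars of 1 SE and filled points at FDR under 0.05. Socs3 was called at 3.23 in epidermis center against margin and 2.87 in center epidermis against dermis, none of the 10 was called in dermis center against margin, K14-Cre-Twist1 against wild type or spiny mouse dermis, and Jak1 and Stat6 were called lower in spiny mouse epidermis at PWD14.

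As a description, the genes whose levels ran most like Socs3 were ranked by Pearson's r of log2(CPM + 1). Over the 13 laboratory mouse libraries, which share layers and hence much of their makeup, Tnfrsf1a (a TNF receptor) led with r = 0.945 among 11683 genes, followed by Sipa1l2 (0.916), Slc16a3 (0.904), Rela (0.849) and the neutrophil gene S100a9 (0.842). Stat3 was at 0.653, in place 113. Over the 12 spiny mouse libraries, among 11022 genes, the leading gene was Lif (0.729), the ligand of Lifr, followed by Trp53inp2 (0.648), Has1 (0.647), Foxp1 (0.639) and Rnd1 (0.633), and Stat3 was at -0.182, in place 7428. In the plot of Socs3 per 100 Stat3 counts the libraries ranged from 2.99 in margin epidermis to 158 in spiny mouse epidermis at PWD14.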

How the data were processed

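RNA-seq counts of 25 libraries were read: 13 of laboratory mouse wounds and 12 of spiny mouse skin at PWD0 and of later wounds. The authors deposited raw read counts per gene symbol, and per the submitters' processing notes these came from STAR 2.4.1d and HTSeq 0.6.0 with the mm10 genome; the strand option of the counting is not given in the sources used here. Reads were 75 bases long. The 5 summary lines in each table are not genes and were left out, and no columns of the authors' own comparisons were present. The 10 genes and the gene lists were chosen with earlier results of these data known.

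CPM was computed over all 24500 gene rows. Tests used R 4.3.3 and edgeR 4.0.16 (limma 3.58.1) with filterByExpr, TMM and the quasi-likelihood test on the libraries of each comparison, a prior count of 0.125, and Benjamini-Hochberg adjustment over all genes tested. The SE of a log2 difference was taken as its size divided by the root of its F statistic. Simulated counts with known changes were used to check the fit. Beside the 10 genes, up to 4 pathway genes and 4 targets per comparison were named: those with the largest called differences and a mean of at least 1 CPM. Some genes and lists are not reported here. Alternatives were DESeq2 1.42.0, edgeR's older quasi-likelihood method, RLE factors, library size alone, the unfiltered table, a minimum of 10 counts per library, 1 fit for each species, all 5 wild-type center dermis libraries, and each library left out in turn. Exon lengths are the union of GENCODE exons on GRCm38 for 23688 of the symbols. Floors of 3 counts cover counting error only. Python 3.11.15 with pandas 2.3.3, numpy 2.4.6 and matplotlib 3.10.9 made the summaries and plots.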

Additional observations from a re-analysis of the deposited data

Results flagged for a closer look

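Among the 5 wild-type center dermis libraries, Socs3 in replicate 4 stood at 203.9 CPM, far above the other 4 libraries, which stood at 3.53 to 51.1 CPM. Its gap to the next library took 0.762 of the range of the group, above Dixon's critical value of 0.710 for 5 libraries. The 10 genes were screened in that group, and chance marks about 1 group in 20. The difference between center and margin differed between the layers, by an interaction term in edgeR, for 4 targets: Junb by 2.34 log2 units, Timp1 by 2.60, Igf1 by 2.83 and Arg1 by 6.42, each higher in the center relative to the margin in epidermis than in dermis. The part of keratinocytes in the dermis libraries and of fibroblasts in the epidermis libraries was not tested.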

How the results depend on the processing

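No paired analysis was possible because the labels give the groups compared no shared replicate numbers. Of 1184 values recomputed, 919 for single genes and 85 counts of called genes among the 10 kept their direction and side of the threshold or stayed within 1.5 times, 46 were no longer called, 48 became called, 63 changed sign and 23 counts moved. Of the 10 genes, 1 was called in epidermis center against margin, 2 with DESeq2 and 0 with edgeR's older method, with at least 10 counts or with all libraries in 1 fit, and 1 to 6 with a library left out. None was called in dermis center against margin or with any library left out (0 to 0), and 0 to 1 in K14-Cre-Twist1. In spiny mouse epidermis 7 were called, 4 with all libraries in 1 fit and 5 to 7 with a library left out. In spiny mouse dermis 0 were called, 2 with DESeq2 or at least 10 counts, 1 with the older method, no filter or all libraries, and 0 to 6 with a library left out. The layers gave 7 in the center (4 to 10 with a library left out), 5 at the margin (2 with at least 10 counts, 1 to 6 with a library left out) and 4 in the spiny mouse (3 to 7). The interaction gave 0, 1 with DESeq2 (Socs3) and 0 to 1 with a library left out. All genes called numbered 176, 125, 8 and 540 in epidermis, dermis, K14-Cre-Twist1 and the interaction, against 1511, 738, 787 and 1125 with DESeq2, 0, 54 and 2 in the first 3 with the older method, and 478, 3, 229 and 92 with all libraries. With a library left out they ranged from 70 to 7405, 19 to 241, 1 to 3353 and 167 to 1343. At least 10 counts gave 0 in K14-Cre-Twist1 and 204 in the interaction, and all 5 center libraries gave 323 in dermis and 190 in K14-Cre-Twist1. On library size alone 18.9% of spiny mouse epidermis calls were higher at PWD14 against 50.2% with TMM. The sign changed on library size alone for Stat5b in spiny mouse epidermis (-0.17), Stat5a in the center layers (-0.17), Osmr in the margin layers (-0.65) and Jak2 in the interaction (0.04), and with all 5 center libraries for Stat3 (0.60), Stat5a (0.28), Jak1 (0.10) and Socs3 (1.91) in dermis, Jak1 (0.09) in K14-Cre-Twist1, and Stat3 (-0.40), Stat5b (0.16), Stat6 (-0.02), Jak1 (-0.09) and Jak2 (0.14) in the interaction. Stat3 in epidermis (also with the older method) and Jak2 in spiny mouse dermis changed sign at -0.00 with DESeq2 and RLE factors. With a library left out, these log2 differences changed sign: Stat3 (-0.26 to 0.34), Stat5b (-0.21 to 0.46), Osmr (-1.16 to 0.29) and Jak2 (-0.36 to 1.0) in epidermis, Stat3 (-0.23 to 0.08), Socs1 (-0.58 to 1.13), Socs3 (-2.32 to 0.63) and Osmr (-0.21 to 0.36) in dermis, Stat6 (-0.40 to 0.07), Jak1 (-0.40 to 0.15), Jak2 (-0.25 to 0.13), Osmr (-0.12 to 0.54) and Lifr (-0.05 to 0.67) in K14-Cre-Twist1, Jak2 (-0.24 to 0.07) in spiny mouse epidermis, Jak2 (-0.13 to 0.23) and Socs3 (-1.52 to 0.11, and 0.05) in spiny mouse dermis, Osmr (-0.79 to 0.00) and Socs1 (-1.48 to 0.20) in the center layers, Osmr (-0.70 to 0.69) in the margin layers, Stat3 (-0.25 to 0.08) and Socs3 (-0.84 to 0.75) in the spiny mouse layers, and Stat3 (-0.07 to 0.52), Stat5b (-0.38 to 0.37), Stat6 (-0.01 to 0.27), Jak1 (-0.02 to 0.29), Jak2 (-0.55 to 0.76) and Osmr (-1.10 to 0.30) in the interaction. The cause was not tested. With 1 library left in a group, that library is assumed to vary like the others. Groups of 1 to 3 libraries limit every comparison, and at low levels, as for Socs1 in margin epidermis, depth limits the fold.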
